A study of Mus musculus with 18 samples.

Results

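The genes that write, copy and remove DNA methylation were followed in Alb-R26Met livers and tumors as 10 genes listed by symbol: Dnmt1, Dnmt3a, Dnmt3b, Dnmt3l, Uhrf1, Hells, Tet1, Tet2, Tet3 and Ezh2. All 10 were found in the deposited expression table, which holds 28442 genes. Alb-R26Met mice carry a Met transgene, a mouse-human chimera placed at the Rosa26 locus, that is switched on by a Cre recombinase under the albumin promoter, so it is expressed in liver cells. Bulk RNA-seq was made from 6 livers of mice that had not developed a tumor and from 12 advanced tumors of untreated mice. All were male F1 mice, from a parent with the Met transgene in strain C57BL/6JRj and an Alb-Cre parent of another inbred strain, and the livers came from mice with the same transgene and Cre as the tumors, so neither distinguishes the groups. Livers were from mice of 52 to 71 weeks of age (median 56.5) and tumors from mice of 49 to 72 weeks (median 65). Tumors 11 and 12 came from 1 mouse, so the 18 samples stand for 17 mice. The study treated other mice of this line with Decitabine, an inhibitor of DNA methyltransferases, which raises the question of how its target machinery is expressed in tumors before any treatment.

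DNA methylation in mammals is set by the de novo methyltransferases Dnmt3a and Dnmt3b, helped by the catalytically inactive Dnmt3l, and is copied to the new strand after replication by Dnmt1. Uhrf1 binds hemimethylated DNA and brings Dnmt1 to it, and Hells is a chromatin remodeler that opens nucleosomal DNA to the methyltransferases. The TET dioxygenases Tet1, Tet2 and Tet3 oxidize methylated cytosine and so start its removal. Ezh2 is the catalytic subunit of Polycomb repressive complex PRC2, which places a repressive histone mark, often at CpG islands that lack DNA methylation. In adult liver hepatocytes rarely divide, and genes needed at replication are usually low there.

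Values are in TPM, a length-corrected share of each sample's transcripts, and the deposited table gives them as whole numbers. A listed 0 therefore stands for any TPM that rounds to 0, and the lowest members are known only coarsely. Sample names carry the tag E19 in 2 livers and 7 tumors and the tag E20 in 4 livers and 5 tumors, without saying what the tags stand for. Tumor 2 stood apart, since the single gene Siglece took 82.9% of its total, against 17.9% to 29.5% in livers and 21.5% to 53.4% in the other tumors, which leaves less of the total for every other gene. For tests, each sample was divided by a scaling factor, which was 0.19 for tumor 2 and 0.79 to 1.42 for the rest, and values after this step are called scaled values. Differences are those of log2(scaled value + 1), fitted with limma over all genes that reached a scaled value of 1 in at least 6 samples, and called at a Benjamini-Hochberg adjusted p under 0.05. The hepatocyte markers Alb, Apoa1, Ttr, Cps1, Hnf4a and Cyp2e1 were all detected in both groups, and none of the 6 was at 0 throughout livers or tumors. Among them Cyp2e1, a metabolic enzyme of mature hepatocytes, was lower in tumors (log2 difference -2.82, adjusted p = 0.00174), and Apoa1 was higher (0.91, adjusted p = 0.013), though not without scaling (adjusted p = 0.232). Nothing in the labels says how the samples were handled beyond their mice, so p-values measure the spread between these samples, and in bulk tissue a change in the number of cells of a type cannot be told apart from a change in RNA per cell.

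Uhrf1 and Dnmt1, which maintain methylation through replication, were higher in tumors, and no member was called lower. They were 2 of the 6 members that passed the filter, against 9.77% of all 11708 genes tested that were called higher and 9.28% that were called lower. Uhrf1 passed the filter through the tumors alone, so its place in this count is not independent of its direction. The Dnmt1 call was lost without scaling (limma adjusted p = 0.42). Tet3, Tet2, Dnmt3a and Hells did not pass the test, Dnmt3b and Ezh2 stayed under the filter and were tested apart, and Dnmt3l and Tet1 were listed at 0 in all 18 samples.

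**Figure D1:**
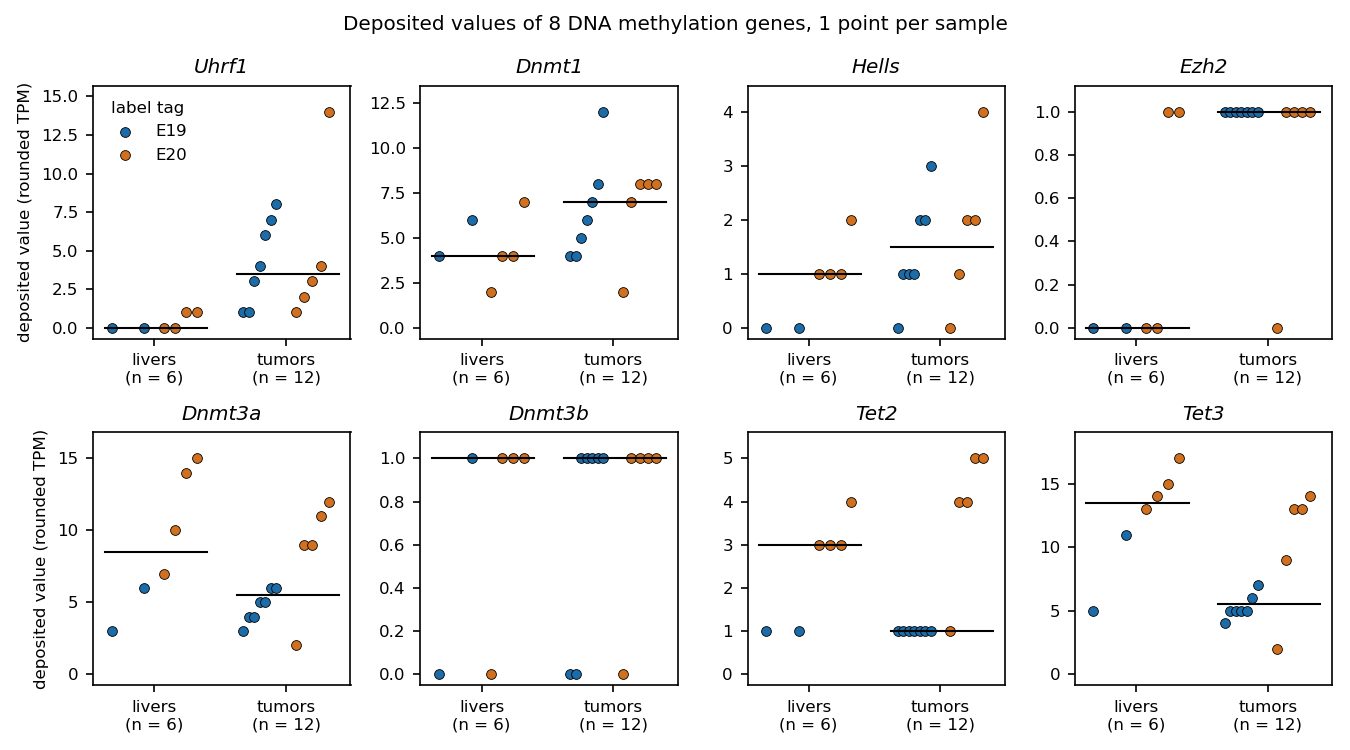
Deposited values (rounded TPM, vertical axes, a separate scale for each gene) of 8 members in 6 livers and 12 tumors. Each point is a sample, blue for tag E19 and orange for tag E20, and black lines are group medians. Uhrf1 was at 0 or 1 in livers and reached 14 in tumors, while Tet2, Tet3 and Dnmt3a separated more by tag than by tissue.

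Uhrf1 showed the clearest difference. Its deposited values were 0 in 4 livers and 1 in the other two (livers 1 and 6), with a median of 0. In tumors the lowest value was 1, the median 3.5 and the highest 14, in tumor 1. Every tumor was thus above 0, 9 of 12 were above every liver in deposited values, and all 12 were in scaled values. Mean values were 0.333 ± 0.516 in livers (SD, n = 6) and 4.5 ± 3.8 in tumors (SD, n = 12). The log2 difference was 1.92 (SE 0.312, 95% interval 1.27 to 2.57, limma adjusted p = 0.000181). No liver reached a scaled value of 1, so Uhrf1 passed the filter through the tumors alone. The size of the difference depends on the pseudocount, since most livers are at 0, and was 2.56 with a pseudocount of 0.5 and 4.10 with 0.1 (limma adjusted p = 8.12e-05 and 5.32e-05). An exact permutation test of deposited values on the log2 scale, added after the data had been seen and free of that filter, gave p = 0.00097 (two-sided, 18564 splits, 0.00776 adjusted over the 8 members that varied).

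The Uhrf1 difference was present under both tags. Among E19 samples the log2 difference was 2.14, and every tumor was above both livers (exact permutation p = 0.0278, which is the lowest p possible with 36 splits). Among E20 samples it was 1.87 (exact permutation p = 0.0159, 126 splits). Without tumor 2 it was 1.98 (limma adjusted p = 0.000194).

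Uhrf1 (Entrez 18140) lies at chr17:56303337-56323486 and Dnmt1 (Entrez 13433) at chr9:20907206-20959888, both on GRCm38. The DNA just before the start sites of Uhrf1 is shown because Uhrf1 is the member with the clearest difference. Genes of replication and division often carry E2F motifs there, and a part of such motifs in the Uhrf1 difference was not tested. RefSeq gives a pair of start windows for Uhrf1, both on the plus strand. The upstream one, chr17:56303087-56303320, lies at the gene start and was cut to 234 bases where an annotated exon begins. The downstream one, chr17:56304063-56304312, has 250 bases. Both are RefSeq sequences of build GRCm38.p6, written 5′ to 3′, and capitals mark E2F-type words (TTTCCCGC, TTTCGCGC, TTTGCCGC or TTTGGCGC) and CCAAT words on either strand.
Uhrf1 upstream start: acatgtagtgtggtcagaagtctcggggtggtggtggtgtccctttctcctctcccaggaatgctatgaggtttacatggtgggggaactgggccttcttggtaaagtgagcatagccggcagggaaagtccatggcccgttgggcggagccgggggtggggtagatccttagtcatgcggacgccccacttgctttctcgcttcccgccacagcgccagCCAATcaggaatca
Uhrf1 downstream start: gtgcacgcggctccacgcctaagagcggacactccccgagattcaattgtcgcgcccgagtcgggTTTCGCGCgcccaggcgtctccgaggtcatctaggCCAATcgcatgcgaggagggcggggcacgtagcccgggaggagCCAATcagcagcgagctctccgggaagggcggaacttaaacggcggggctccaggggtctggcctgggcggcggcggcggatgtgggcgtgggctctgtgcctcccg
The upstream window held no E2F-type word and 1 CCAAT word. The downstream window held 1 E2F-type word, which begins 185 bases before the start, and 2 CCAAT words. An E2F-type word was found in 1.86% of the 32807 promoter windows of 250 bases in the same RefSeq table, and a CCAAT word in 33.8%, and a gene with several windows has more chances to hold one. Dnmt1 has 3 start windows, of which none held an E2F-type word, and CCAAT words numbered 4, 0 and 1 from the farthest upstream to the farthest downstream. No E2F-type word was found in the windows of the other members, some of which were cut back in the same way. These are matches of letters and no evidence of binding.

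Dnmt1, the maintenance methyltransferase, was higher in tumors by a smaller margin. In livers it ranged from 2 to 7 with a median of 4, and in tumors from 2 to 12 with a median of 7. The groups overlapped: 5 tumors were above every liver, and tumor 2 was level with the lowest liver in deposited values. The log2 difference was 0.59 (SE 0.195, limma adjusted p = 0.037). The tags gave unequal values, 0.18 for E19 (exact permutation p = 0.556) and 0.85 for E20 (exact permutation p = 0.00794, the lowest p possible with 126 splits), but the difference between tags was not called (interaction 0.67, SE 0.386, adjusted p = 0.97). The E20 p is that of scaled values and depends on the scaling of tumor 2. Its deposited 2 was level with the lowest E20 liver, and its scaled value of 10.28 was the highest among E20 samples.

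The Dnmt1 call rested on the scaling and on single samples. Without scaling the difference was 0.44 (adjusted p = 0.42), and without liver 3, the lowest liver, it was 0.44 (adjusted p = 0.133). Leaving out liver 2, liver 6, tumor 3 or tumor 5 also ended the call (adjusted p = 0.0744, 0.0821, 0.0542 and 0.0502), with differences of 0.52 to 0.60. Without tumor 2 the call remained, at 0.56 (adjusted p = 0.0272).

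Hells, the remodeler, ranged from 0 to 2 in livers (median 1) and from 0 to 4 in tumors (median 1.5). The groups overlapped over most of this range, and only tumors 1 and 5 were above every liver. The log2 difference was 0.44 with a 95% interval of -0.17 to 1.05 (limma adjusted p = 0.329). With the tag in the fit and without tumor 2, a setting chosen after the data had been seen, it was 0.75 (adjusted p = 0.0395). Both E19 livers were at 0, and the E19 difference was 1.13 (exact permutation p = 0.0833), against 0.09 for E20 (exact permutation p = 0.817). The gene (Entrez 15201) lies at chr19:38930262-38970470.

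**Figure D2:**
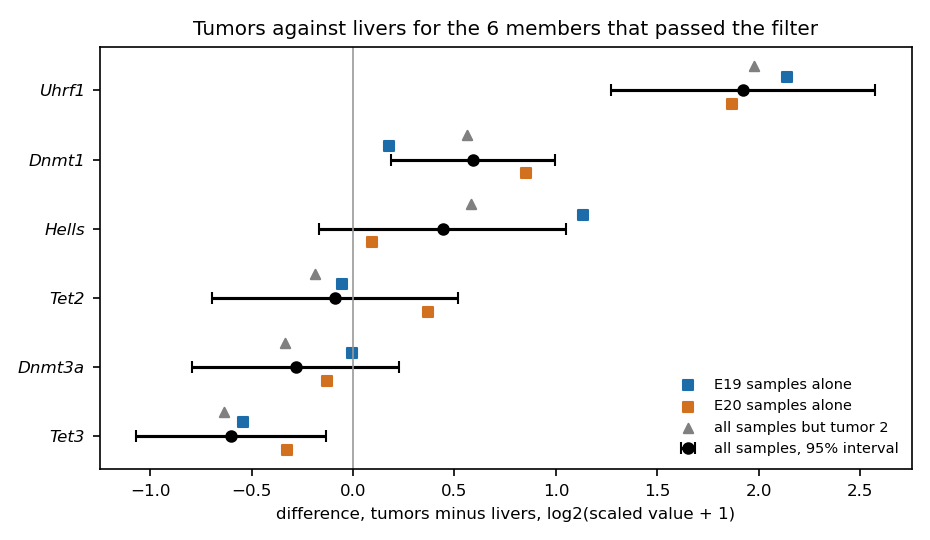
Difference between tumors and livers in log2(scaled value + 1) for the 6 members that passed the filter (horizontal axis). Black points are all samples with the 95% interval from limma, squares the E19 (blue) or E20 (orange) samples alone and grey triangles all samples but tumor 2. Only the intervals of Uhrf1, Dnmt1 and Tet3 leave out 0, and after adjustment over all genes Tet3 was not called.

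Of the de novo methyltransferases, Dnmt3a was not shown to differ between tissues. It ranged from 3 to 15 in livers (median 8.5) and from 2 to 12 in tumors (median 5.5). The lowest livers were the E19 ones, at 6 and 3, and all 7 E19 tumors lay between 3 and 6, so most of the range lay between tags. The log2 difference was -0.28 with a 95% interval of -0.79 to 0.23 (limma adjusted p = 0.478), and -0.08 (adjusted p = 0.787) with the tag in the fit.

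Dnmt3b was listed at 1 in 4 of 6 livers and 9 of 12 tumors, and at 0 in the rest. The mean difference was 0.0833 TPM (exact permutation p = 1), so no difference was detectable at this rounding. Dnmt3l, the germline cofactor, was at 0 in all samples, as was Tet1. Dnmt3a (Entrez 13435) lies at chr12:3801559-3914443, Dnmt3b (Entrez 13436) at chr2:153649411-153687730 and Dnmt3l (Entrez 54427) at chr10:78042287-78063622.

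Tet3 had the highest median of all members in livers and a lower median in tumors, and the difference did not pass the test. In livers it ranged from 5 to 17 with a median of 13.5, and in tumors from 2 to 14 with a median of 5.5. In scaled values 4 tumors were below every liver, and in deposited values 2 were. The log2 difference was -0.60 (SE 0.225, 95% interval -1.07 to -0.13, limma adjusted p = 0.0674). Without tumor 2 it was -0.64 and was called (adjusted p = 0.0396), and it was also called without liver 5 (-0.77, adjusted p = 0.0205) or tumor 12 (-0.65, adjusted p = 0.0446). With the tag in the fit it was -0.41 (adjusted p = 0.0562), and within tags it was -0.54 in E19 (exact permutation p = 0.111) and -0.33 in E20 (exact permutation p = 0.0556). The tags are unevenly spread, with E20 in 4 of 6 livers and 5 of 12 tumors, and Tet3 was higher under E20.

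Tet2 ranged from 1 to 4 in livers (median 3) and from 1 to 5 in tumors (median 1). It was at 1 in both E19 livers and in all 7 E19 tumors, at 3 or 4 in the E20 livers, and at 4 or 5 in the E20 tumors apart from tumor 2, which was at 1. The log2 difference between tissues was -0.09 with a 95% interval of -0.70 to 0.52 (limma adjusted p = 0.871), and 0.20 (adjusted p = 0.316) with the tag in the fit. Among E20 samples it was 0.37 (exact permutation p = 0.00794, the lowest p possible with 126 splits), and all 5 tumors exceeded all 4 livers in scaled values. That order and p depend on the scaling of tumor 2. Its deposited 1 was below every E20 liver, and its scaled value of 5.14 was the highest among E20 samples. Among E19 samples it was -0.05 (exact permutation p = 0.611). The interaction was not called (0.42, SE 0.253, adjusted p = 0.97). Tet1 (Entrez 52463) lies at chr10:62804570-62887469, Tet2 (Entrez 214133) at chr3:133463677-133545136 and Tet3 (Entrez 194388) at chr6:83362373-83457208.

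Tet2, Tet3 and Dnmt3a differed between the tags. In the fit with tissue and tag, 3 of the 6 tested members differed between E20 and E19, against 21.1% of all genes. Tet2 was higher under E20 by 1.15 on the log2 scale (SE 0.122, limma adjusted p = 1.09e-05). Dnmt3a was higher by 0.82 (SE 0.155, adjusted p = 0.00117) and Tet3 by 0.74 (SE 0.143, adjusted p = 0.00139). The maintenance genes showed smaller values that were not called, namely -0.06 for Dnmt1 (adjusted p = 0.858), 0.22 for Uhrf1 (adjusted p = 0.627) and 0.32 for Hells (adjusted p = 0.433). No gene had a called interaction of tag and tissue in limma (0.00% of 11708 genes, with 348 at an unadjusted p under 0.05), so no member was shown to respond differently under the tags.

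Ezh2, the Polycomb methyltransferase, was barely detected in livers. It was listed at 1 in livers 1 and 3 and at 0 in the other 4, while 11 of 12 tumors were listed at 1 and tumor 2 at 0. The mean difference was 0.583 TPM (exact permutation p = 0.0217, two-sided, 18564 splits, 0.0434 adjusted over the 2 members under the filter that varied, and 0.0868 adjusted over all 8 members that varied). In E19 both livers were at 0 and all 7 tumors at 1, and in E20 2 of 4 livers and 4 of 5 tumors were at 1. Leaving out any of the 4 livers at 0 gave p = 0.0525 by the same exact permutation test, and leaving out tumor 2 gave p = 0.0063. The gene (Entrez 14056) lies at chr6:47530274-47595270. Ezh2 is known at this rounding only as above or below the value that rounds to 1, so no fold is given.

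Among the other PRC2 genes, 11 of 12 were tested, 2 were higher and none was lower (18.2% called). Over all genes tested, 9.77% were called higher and 9.28% lower, and whether the PRC2 list departs from these shares was not tested. Its median log2 difference was 0.07, against -0.06 over all genes tested. The histone-binding subunit Rbbp7 was 22 in the median liver and 43 in the median tumor (log2 difference 0.98, SE 0.264, limma adjusted p = 0.0122). The core subunit Suz12 was 7 and 10.5 (0.58, SE 0.151, adjusted p = 0.00913). In scaled values 9 of 12 tumors were above every liver, and in deposited values 4 were. Without scaling neither was called (adjusted p = 0.28 for Rbbp7 and 0.5 for Suz12), and Rbbp7 also differed between tags (adjusted p = 0.0236).

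The order of the members in each sample, with levels per length set side by side, followed both tissue and tag. Dnmt1 was listed below Tet3 in 6 of 6 livers, and in tumors it was above Tet3 in 4, level in 2 and below in 6. The tumors with Dnmt1 above Tet3 were all E19, where it was above in 4 of 7 and level in 1. Under E20 the order was nearly the same in both tissues, with Dnmt1 below Tet3 in 4 of 4 livers and in 4 of 5 tumors, and level in the other. Dnmt1 against Dnmt3a followed the tag in both tissues. Under E19 it was above Dnmt3a in 1 liver and level in 1, and above in 4 tumors and level in 3, while under E20 it was below in 4 of 4 livers and 4 of 5 tumors. Uhrf1 was below Dnmt1 in all 6 livers, and in tumors it was above Dnmt1 in 2 and level in 1. These orders do not depend on the scaling, were chosen after the data had been seen and were not tested.

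Cell cycle genes were higher in tumors as well. Of 30 listed, 22 were tested, 15 were higher in tumors and none was lower, against 9.77% of all genes called higher. No liver reached a scaled value of 1 in 7 of the 22, which therefore passed the filter through tumors alone and were all called. Of the other 15, which livers also reached, 8 were higher. The list does not hold the thymidine kinase Tk1, which was lower in tumors (log2 difference -1.18, limma adjusted p = 0.00445). Top2a, which untangles replicated DNA, was 0 in the median liver and 5 in the median tumor (log2 difference 2.41, SE 0.264, limma adjusted p = 1.48e-06). Top2a, Mki67 and Ccna2 are among the 7. The proliferation marker Mki67 was at 0 in all livers and between 1 and 4 in tumors, and the cyclin Ccna2 was at 0 in all livers and between 1 and 13 in tumors. With E20 samples alone 1 cell cycle gene was called and with E19 alone 8, while without tumor 2 the number was 22.

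Across tumors, Uhrf1 and Hells were higher where cell cycle genes were higher, but not firmly. A cell cycle score was the mean log2(scaled value + 1) of the 30 genes, and tumors 11 and 12 were averaged, which gives 11 mice. Pearson's r was 0.66 for Uhrf1 (permutation p = 0.0255, 0.0682 adjusted over 8 members) and Spearman's rho was 0.73 (permutation p = 0.015, adjusted 0.0598). For Hells r was 0.69 (permutation p = 0.0196, adjusted 0.0682) and rho 0.77 (permutation p = 0.00699, adjusted 0.0559). None of the 8 members passed the adjustment, and 3 had an unadjusted permutation p under 0.05 for r, the other being Tet3 with -0.68 (permutation p = 0.0256, adjusted 0.0682, rho -0.54 with permutation p = 0.0943). Dnmt1 had r = -0.14 (permutation p = 0.739) and rho = 0.14 (permutation p = 0.693).

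Without tumors 5 and 10, which lay farthest from the median score, r was 0.60 for Uhrf1 (exact permutation p = 0.0861), 0.68 for Hells (exact permutation p = 0.0465, adjusted 0.344) and -0.44 for Tet3 (exact permutation p = 0.244), so none held after adjustment. Among the 7 E19 tumors r was 0.88 for Uhrf1 (exact permutation p = 0.00179, adjusted 0.0143) and 0.83 for Hells (exact permutation p = 0.00575, adjusted 0.023). The 5 E20 tumors are too few for a value. Without scaling r was 0.85 for Uhrf1 and 0.84 for Hells (permutation, both adjusted p = 0.00464), and above 0 for every member tested. Tumor 2 is low for most genes on that scale, which moves score and members together, so no conclusion is drawn from these r. There r turned positive for Dnmt1 (0.68, permutation adjusted p = 0.0383) and for Tet3 (0.34, permutation adjusted p = 0.356), so no direction is given for these genes.

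**Figure D3:**
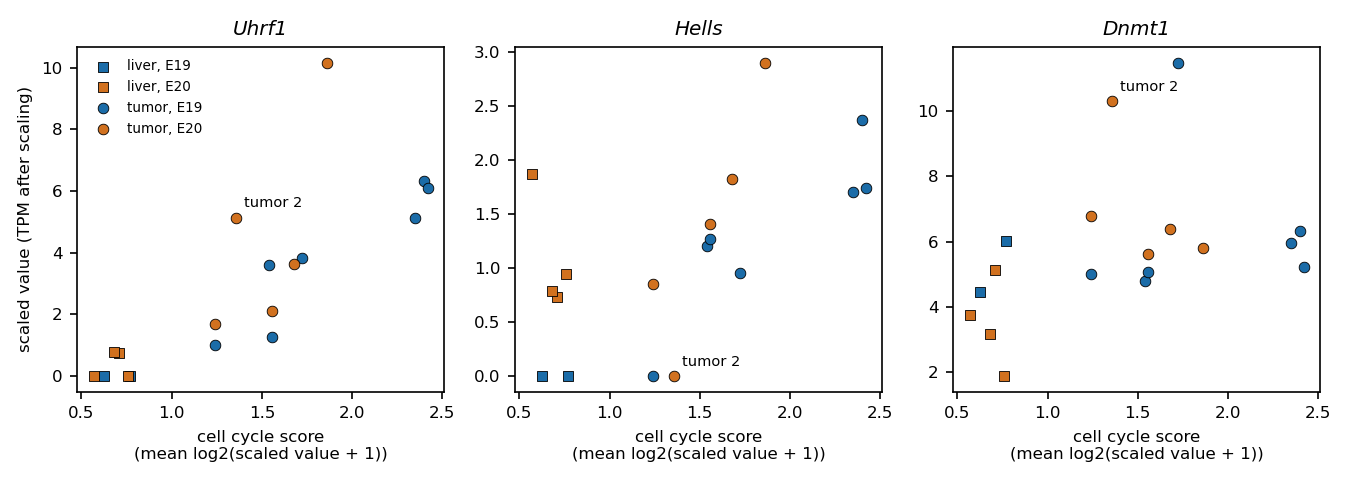
Scaled values of Uhrf1, Hells and Dnmt1 (vertical axes) against the cell cycle score (horizontal axis, mean log2(scaled value + 1) of 30 genes). Squares are livers and circles tumors, blue for E19 and orange for E20. Livers scored 0.570 to 0.768 and tumors 1.24 to 2.42, and in tumors Uhrf1 and Hells tended to be higher at higher scores while Dnmt1 showed no such order.

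The genes whose scaled levels followed a member most closely over the 12 tumors are given as a description, by Pearson's r on the log2 scale. They were picked from 11708 tested genes, so a high r can arise from the picking alone. Tumors 11 and 12, from 1 mouse, are separate points here. For Uhrf1 the genes were Taf6 (0.90), Mtg2 (0.85), Wwc1 (0.84), Mycn (0.83) and Tfdp1 (0.83). Tfdp1 encodes the dimer partner of E2F factors. Mycn encodes a Myc family factor that was itself higher in tumors (log2 difference 1.57, limma adjusted p = 1.06e-05). Taf6, Mtg2, Wwc1 and Tfdp1 were not called (limma adjusted p = 0.599, 0.851, 0.845 and 0.124). For Hells they were Ccne2 (0.90), Tmem214 (0.90), Timeless (0.89), Cdk4 (0.89) and Txnrd1 (0.89), which include the cyclin Ccne2, the kinase Cdk4 and the replication fork protein Timeless. For Dnmt1 they were Nek4 (0.88), Grk6 (0.84), Dvl2 (0.82), Wdsub1 (0.82) and Tmem209 (0.80). None of these 15 genes is in the cell cycle list. Ezh2 is not ranked, since 11 tumors share its value.

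Partners that work beside Dnmt1, Uhrf1 and Hells mostly did not pass the test. Of 20 listed, 16 were tested and 2 were higher, with none lower (12.5% called, median log2 difference 0.08). Over all genes tested, 9.77% were called higher and 9.28% lower. Lig1, the DNA ligase of replication that binds Uhrf1, was at 1 in all 6 livers and between 1 and 5 in tumors (median 3), a log2 difference of 1.05 (SE 0.173, limma adjusted p = 0.000219). Zfp57, a zinc finger protein that keeps methylation at imprinted loci, was at 0 in all 6 livers and between 1 and 5 in all 12 tumors, so it too passed the filter through tumors alone. Of 11 methyl-CpG readers 10 were tested and none was called by limma (median -0.09).

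Of 17 genes that complete demethylation after the TET enzymes, 13 were tested, with 1 higher and 1 lower. Tdg, the glycosylase that excises oxidized cytosine, was 4.5 in the median liver and 7.5 in the median tumor (log2 difference 0.53, SE 0.172, limma adjusted p = 0.0367). Its call was lost in 12 of 34 alternatives, among them values without scaling (adjusted p = 0.541) and the fits without liver 2, 3, 4 or 5 or tumor 7 (adjusted p = 0.0908, 0.12, 0.052, 0.0892 and 0.0588). Cxxc5, a CpG-binding protein linked to Tet2, was 20.5 and 14 (-0.64, SE 0.198, adjusted p = 0.0271), and 4 tumors were below every liver in scaled values. This call was lost in 11 of 34 alternatives, among them values without scaling (adjusted p = 0.227) and the fits without any of livers 2 to 6 (adjusted p = 0.0504, 0.0551, 0.062, 0.0507 and 0.106). Enzymes that make or turn over oxoglutarate and its relatives, the cofactor and inhibitors of TET dioxygenases, were lower in 5 of 11 tested and higher in none (median -0.53, against 9.28% of all genes called lower). Fumarate hydratase, Fh1, was 67 in the median liver and 36 in the median tumor (-0.88, SE 0.240, adjusted p = 0.0133). D2hgdh, which removes hydroxyglutarate, was 12 and 6.5 (-0.77, SE 0.155, adjusted p = 0.00145). Neither was called without scaling (adjusted p = 0.15 for Fh1 and 0.0684 for D2hgdh).

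The methionine cycle, which makes the methyl donor S-adenosylmethionine, was lower in tumors. All 20 listed genes were tested, 9 were lower and none was higher, with a median log2 difference of -0.52. Over all genes tested, 9.28% were called lower. Nnmt, which spends the methyl group on nicotinamide, ranged from 23 to 40 in livers and from 0 to 8 in tumors, without overlap (-2.90, SE 0.388, limma adjusted p = 1.91e-05). Gnmt, which spends it on glycine, was 1079 in the median liver and 323 in the median tumor (-1.96, SE 0.381, adjusted p = 0.00103). Ahcy, which clears the product that inhibits methyltransferases, was 568.0 and 151 (-1.75, SE 0.298, adjusted p = 0.000292), and 10 of 12 tumors were below every liver in scaled values. The direction was the same under each tag for these 3 genes, with Gnmt at -2.28 in E19 and -1.71 in E20. The hepatocyte marker enzymes were as follows in the same samples. Cyp2e1 had medians of 2116 in livers and 216 in tumors, with 11 of 12 tumors below every liver in scaled values. Cps1 had medians of 1252 and 503 without being called (-1.88, SE 0.788, adjusted p = 0.105). Their part in the methionine cycle values was not tested.

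**Figure D4:**
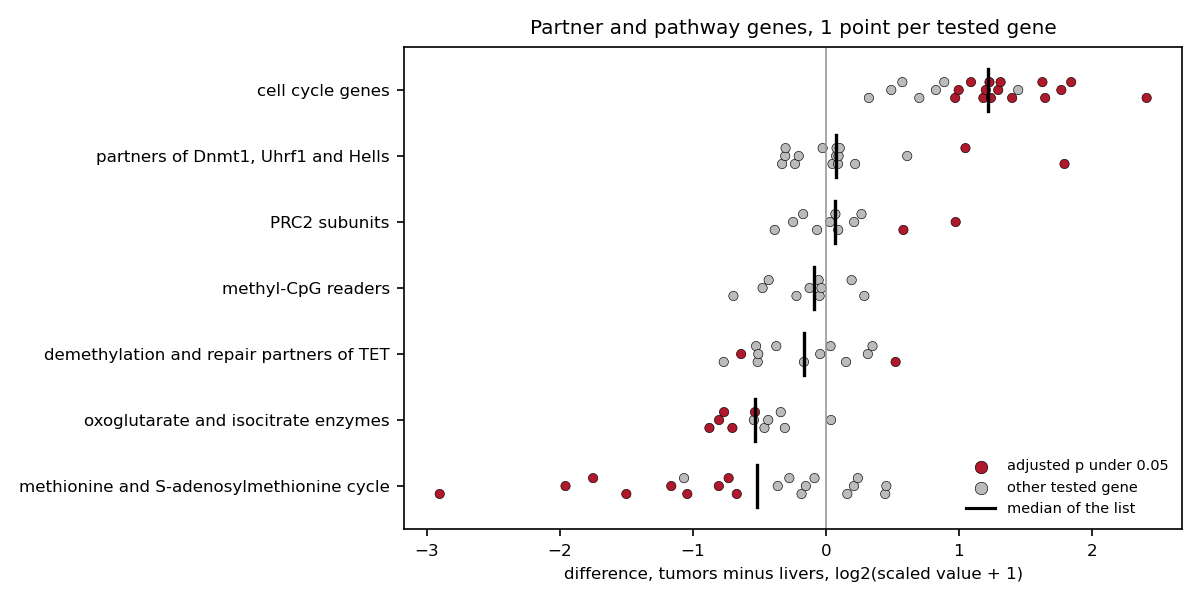
Difference between tumors and livers in log2(scaled value + 1) (horizontal axis) for the tested genes of 7 lists. Each point is a gene, red where its adjusted p was under 0.05, and black bars are list medians. Cell cycle genes lie to the right with a median of 1.22, in part genes that passed the filter through tumors alone, the methionine cycle and oxoglutarate enzymes to the left with medians of -0.52 and -0.53, and the remaining lists near 0.

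Of 11 genes that take up or process Decitabine or related nucleosides, 6 were tested, 2 were lower and none was higher. Of all genes tested, 9.28% were called lower. The median log2 difference of the 6 was 0.25. The nucleoside transporter Slc29a1 was 213 in the median liver and 109 in the median tumor (-1.02, SE 0.204, limma adjusted p = 0.00124), with all 12 tumors below every liver in scaled values, though not called without scaling (adjusted p = 0.0519). The thymidine kinase Tk1 was 27.5 and 9.5 (-1.18, SE 0.275, adjusted p = 0.00445). Dck, the kinase that activates Decitabine, and Cda, the deaminase that inactivates it, were named after their values were seen. They had differences of 0.62 (SE 0.263, adjusted p = 0.112) and 0.62 (SE 0.269, adjusted p = 0.118) and were not called. Among 25 germline genes that promoter methylation is known to keep silent, 21 were at 0 in every sample. So were 12874 of all 28442 genes. Stk31 and Rhox5 were at 0 in all livers and above 0 in at least 1 tumor. The list summed to 1 to 6 in livers and 0 to 15 in tumors. Xlr3a, the 1 gene of the list that was tested, was not called (log2 difference -1.15, limma adjusted p = 0.109). Of 55 genes that the authors picked as methylated in the gene body and overexpressed in tumors of this model, 40 were tested, 29 were higher and none was lower, and since they were picked for overexpression this direction is not independent evidence. Among them Cdkn2b, an inhibitor of cyclin-dependent kinases, was at 0 in all livers and between 1 and 17 in tumors.

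Markers of other cells also differed between tissues. Of 6 endothelial markers 3 were higher, with summed values of 47 to 70 in livers and 17 to 109 in tumors. Of 6 fibroblast markers 3 were higher and Dcn was lower, with sums of 57 to 71 and 8 to 155. Dcn alone was 41 to 55 in livers and 2 to 55 in tumors. Of 5 cholangiocyte markers 2 were tested and Spp1 was higher, with sums of 10 to 26 and 63 to 726, and Epcam at 0 in all livers. Most of the tumor sum was Spp1, at 5 to 14 in livers and 60 to 716 in tumors. Sox9 was not called (limma adjusted p = 0.315). None of the 4 tested among 8 leukocyte markers was called by limma, with sums of 17 to 35 and 3 to 61. Of 6 macrophage markers Clec4f was lower, with sums of 71 to 195 and 9 to 204, and its call was lost in 14 of 34 alternatives. Of 6 erythroid markers 4 were tested and Alas2 was lower, a call also lost in 14 of 34 alternatives, with sums of 5 to 59 and 2 to 62 and Hbb-bt at 0 throughout. The lowest tumor sum of each of these lists was that of tumor 2, whose values are low for most genes before scaling. The part of these cells in the values of Uhrf1, Dnmt1, Ezh2 and the methionine cycle was not tested.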

How the data were processed

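Poly-A RNA of 6 livers and 12 tumors was measured by RNA-seq. The authors sequenced paired ends, used GRCm38 (mm10), quantified with Salmon and normalized to TPM. The submitters' processing notes also name edgeR, with no role. Each deposited value is a whole-number score, treated here as rounded TPM, because 882 of 900 values over 50 genes matched the authors' unrounded TPM within 0.5. Sample totals were 835144 to 884597 in livers and 845356 to 907513 in tumors. TPM keep no read depth, so the precision that depth gives is unknown and no counting intervals are given. No 2 samples were identical, and 8 lines with an extra separator were read accordingly. For tumors 3 and 10 the mouse number in the labels differs from the study's mouse table, and they were matched by tumor number and tag.

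Scaling used an unweighted trimmed mean of M values (trimming fractions 0.3 for M and 0.05 for A). The filter asked for a scaled value of 1 or more in 6 or more samples. Limma 3.58.1 (R 4.3.3) with a variance trend was run on log2 values with a pseudocount of 1, a scale that understates changes of low genes. Members under the filter were tested by exact permutation. Correlations were tested with 100000 permutations, or with all orders where n was under 10 (Python 3.11.15, scipy 1.17.1). The fit was tested on simulated data. Members and lists were chosen with earlier results of these data known. Named genes are the 10 members, up to 3 called genes with the highest and 3 with the lowest difference from each list, of which the marker and model lists are printed in part, and the 5 genes most like Dnmt1, Uhrf1 and Hells. Alternatives covered scaling, filter, pseudocount, tag, age, a block by replicate number, quality weights and each sample left out. Promoters and positions are RefSeq GRCm38.p6, matched by Entrez identifier for all 10 members.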

Additional observations from a re-analysis of the deposited data

Results flagged for a closer look

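In the livers, 42 genes named in the report or by its rule, the 10 members among them, were searched for a sample far from the rest, by the gap to its nearest neighbor as a share of the group's range. Chance alone flags about 1 in 20 groups, and 4 genes were found, none of them a member. Chrna4, from the authors' list of gene-body methylated genes, reached 103 in liver 1, while no other liver exceeded 6 (gap 0.942 of the range). Cxxc5 was at 37 in liver 6 and next at 21 (gap 0.762), and the macrophage marker Clec4f was at 34 in liver 5 and next at 19 (gap 0.714). Top2a was listed at 1 in liver 3, and each of the other 5 livers at 0 (gap 1), which is a single rounding step.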

How the results depend on the processing

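Uhrf1 was called in every alternative in which it was tested, with log2 differences of 1.80 to 2.04 over the 18 fits that left out 1 sample, and of 2.56 and 4.10 with pseudocounts of 0.5 and 0.1. It was under the filter with E20 samples alone and with livers and tumors 1 to 6. The number of members called was 2 in the report's fit, 1 without scaling and with E19 samples alone, 0 with E20 samples alone and 0 with livers and tumors 1 to 6, with or without a replicate block, and it ranged from 1 to 4 as each sample was left out. The 4 were reached without tumor 2, where Ezh2 passed the filter and Tet3 was called. All genes called numbered 2230 in the report's fit, 1341 without scaling, 1344 for E19 alone, 405 for E20 alone and 4702 with sample quality weights. Methionine cycle genes called lower numbered 9, against 5 without scaling, 4 for E19 alone and 5 for E20 alone, and 7 to 9 as each sample was left out. Cell cycle genes called higher numbered 15, against 8 for E19 alone and 1 for E20 alone, and 13 to 22 as each sample was left out. The fits on part of the samples hold fewer samples and test fewer genes.

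Replicate numbers 1 to 6 occur in both groups but belong to different mice. Deviations of same-numbered pairs correlated between -0.10 and 0.42 and not all above 0.1, so the numbers do not pair the samples. With a replicate block 1359 genes and 8 cell cycle genes higher were called, and without the block on the same 12 samples 1212 and 7.

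The Tet2 difference turned positive with the tag in the fit (0.20, or 0.15 without tumor 2 as well), with E20 alone (0.37) and on livers and tumors 1 to 6 (0.040, also 0.040 with the block). Dnmt3a was 0.036 with E19 alone. Dnmt3b ranged from -0.05 (without liver 3 or 4) to 0.152 TPM as each sample was left out. None of these was called. Members correlated with the cell cycle score after adjustment numbered 0, but 4 without scaling and 3 with all 12 tumors as points. Without scaling, where tumor 2 is low for most genes, r turned positive for Dnmt1 (0.68), Dnmt3a (0.43), Tet2 (0.075) and Tet3 (0.34). Against Mki67 and Top2a alone it was 0.46 for Dnmt1 and -0.41 for Ezh2. Leaving out 1 tumor at a time gave -0.28 to 0.061 for Dnmt1 and -0.45 to 0.24 for Ezh2, both with the change of sign without tumor 2. Ezh2 is listed at 1 in every tumor but tumor 2, so apart from that tumor its scaled values differ only by the scaling factors. No conclusion is drawn from the r of Ezh2. Of the 32 named genes outside the members, 20 lost their call in some alternative and 0 changed direction. For the calls that changed with scaling, the cause was not tested. Fits without Siglece in the totals, and with tag and without tumor 2, were chosen after seeing the data. Rounding to whole TPM limits Dnmt3b, Ezh2, Hells and Uhrf1 in livers.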

Other observations

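Within the methionine cycle, the pair of genes for the enzyme that makes S-adenosylmethionine differed from each other, a comparison chosen after their values were seen. Mat1a, the form of adult hepatocytes, ranged from 512 to 715 in livers (median 605) and from 19 to 487 in tumors (median 235), without overlap. Its log2 difference was -1.50 (SE 0.318, limma adjusted p = 0.00206), with -1.50 in E19 and -1.52 in E20. Mat2a, the form of most other cells, had medians of 28 in livers and 29.5 in tumors (0.21, SE 0.257, adjusted p = 0.633). Uhrf2, a relative of Uhrf1 that also binds modified cytosine, had medians of 8.5 and 10 and was not called (0.19, SE 0.137, adjusted p = 0.366). Pcna, the clamp that holds Dnmt1 at the replication fork, had medians of 23.5 and 42 and was not called either (0.61, SE 0.368, adjusted p = 0.276). In scaled values 8 of 12 tumors were above every liver, and in deposited values 6 were.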
